A study of Mus musculus with 2 samples.

Results

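Small heat shock proteins and inducible Hsp70 were described here through 9 genes of the count table, Cryab, Hspb1, Hspb2, Hspb3, Hspb6, Hspb7, Hspb8, Hspa1a and Hspa1b, chosen by name from the 35163 genes measured. They were followed cell by cell in fibres of the FDB (flexor digitorum brevis), which bends the toes of the hind foot, from 1 untreated C57BL/6J mouse over 3 months old. For the study as a whole, the paper names adult male mice of the C57BL/6J and DBA2 backgrounds. It does not say which animals gave these cells. The muscle was digested with collagenase at 37 °C for 1.5 hours, gently broken up, and passed through a large particle sorter into 96-well plates. Every group of cells below is taken as a group within 1 animal after digestion and sorting, and no undigested muscle was measured beside it. The paper obtained whole myofibers from muscle dissected tendon to tendon, and fragments from small pieces cut with scissors. Groups that hold fragments therefore mix these preparations. Cells with more than 5000 genes and less than 20% mitochondrial counts were kept, which left 171 of 763 cells, 168 of them whole myofibers and 3 of them fragments. A fibre class was given by whichever myosin heavy chain gene of Myh1, Myh2, Myh4, Myh7 and Myh8 had most counts. This gave 117 fast 2X, 51 fast 2A, 2 slow and 1 fast 2B cell. The paper counted cells with raised Myh7 as slow, also where the rise was modest, and so had more slow cells. Its slow cells lay in a cluster shared with fast 2A, so the fast 2A class here can hold cells that the paper called slow. No p-value was computed, because cells of 1 mouse are not replicates.

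Small heat shock proteins share an alpha-crystallin domain and assemble into oligomers that hold unfolding proteins in a soluble state without using ATP. Striated muscle is known for unusually large amounts of several of them, which bind desmin, titin, filamin and actin at the Z-disc. Hsp70 proteins refold or hand over such clients in cycles of ATP hydrolysis, driven by J-domain partners. Hspa1a and Hspa1b encode the inducible Hsp70 and are classical targets of heat shock factor 1, which binds inverted repeats of the bases GAA in their promoters.

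The kept cells held 28827 to 1542996 unique molecule counts each, with a median of 239581, and values below are counts per 1000000 of a cell's or a group's total (CPM). Limits are exact at 95% and cover counting error only. The 117 fast 2X cells held 39180010 counts and the 51 fast 2A cells held 11907400, with medians of 255726 and 206510 per cell. All 5 general myofiber markers were present, at 115836 CPM in fast 2X and 121147 CPM in fast 2A cells. Of the markers that separate the classes, all 4 fast 2X genes were lower and all 6 slow or 2A genes were higher in fast 2A cells by at least 1.5-fold. The fast 2X and fast 2A names thus held against genes that the rule did not use. The slow or 2A list does not set slow apart from fast 2A. Its genes summed to 2287 to 27346 CPM in fast 2A cells (median 5656), and to 28678 and 22469 CPM in the 2 slow cells. Markers of other cell types were low in both classes. In fast 2X and fast 2A cells the summed levels were 164 and 148 CPM for endothelial, 88.9 and 79.7 for smooth muscle and pericyte, 56.9 and 55.7 for fibroblast, 54.1 and 47.0 for Schwann cell and 21.2 and 8.06 CPM for red blood cell genes. Of the single genes with enough counts, 1 of 3 endothelial and 2 of 4 smooth muscle genes were at least 1.5-fold lower in fast 2A cells. The cells highest in such markers were left out in 1 rerun, chosen after seeing the data. The log2 ratio of fast 2A over fast 2X cells was then 0.92 for Hspb6, 0.95 for Hspb7, 0.32 for Cryab and -0.26 for Hspb8. Any further part of other cells in the class ratios was not tested. A fast 2X cell of plate 710, with 39394 counts, stood apart with 10458 CPM of smooth muscle and pericyte genes, where the next highest cell had 1469 CPM, and with 3706 CPM of fibroblast genes. Another fast 2X cell had 4561 CPM of Schwann cell genes, where the next had 864 CPM. Cells that share a sequencing index are taken here as 1 plate, named by the number of that index. The 8 plates so defined differed in depth, with medians from 163866 to 306519 counts per cell. Plates 705 to 708 were sequenced on lane 1 and plates 709 to 712 on lane 2. All 96 cell barcodes were used on both lanes, but no pair of plate and cell barcode was.

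In the GRCm38 build with GENCODE M21 models, Cryab (ENSMUSG00000032060.10) lies on the plus strand of chromosome 9 from 50751325 to 50756636. Hspb2 (ENSMUSG00000038086.4) lies on the opposite strand from 50751078 to 50752354, and the annotated spans of this head-to-head pair overlap by 1030 bases. The overlap stems from longer Cryab models, and the main Cryab transcript starts 553 bases beyond the end of Hspb2. Hspb1 (ENSMUSG00000004951.10) spans 135887919 to 135889563 on the plus strand of chromosome 5, and Hspb8 (ENSMUSG00000041548.4) spans 116408491 to 116422864 on the minus strand of the same chromosome. Hspb6 (ENSMUSG00000036854.14) is at 30552178 to 30555443 on the plus strand of chromosome 7, where its span overlaps Proser3 and Lin37 on the other strand. Hspb7 (ENSMUSG00000006221.7) is on the plus strand of chromosome 4 at 141420779 to 141425311, and Hspb3 (ENSMUSG00000051456.4) is a single exon on the minus strand of chromosome 13 at 113662896 to 113663676. Hspa1b (ENSMUSG00000090877.3), from 34956436 to 34959238, and Hspa1a (ENSMUSG00000091971.3), from 34969190 to 34972156, are genes without introns on the minus strand of chromosome 17, separated by 9951 bases.

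Some of these rows share sequence with other genes, which bears on how far each can be read alone. Of all 66-base words (the length of the sequenced read) in the exons of Hspa1a, 54.7% were also found in Hspa1b, and 58.0% of the words of Hspa1b were found in Hspa1a. Reads in the shared stretches cannot be assigned to 1 of the pair, so the split between them is uncertain. Where along the genes the counted reads fell was not examined, so the share of counts concerned is not known. Hspa1l shared 6.48% of the words of Hspa1a and 5.22% of those of Hspa1b. Its row held 1888 counts in the kept cells, 20.2% of the counts of Hspa1a. Hspb1 shared 47.3% of its words with the processed copy Hsp25-ps1, but that row held 134 counts in the kept cells, 0.292% of the counts of Hspb1. Lin37 held 4.22% and Proser3 0.260% of the counts of Hspb6. The other 6 members shared from 0 to 0.524% of their words.

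The sequence upstream of the start shows most plainly how alike the inducible pair is. Windows of 250 bases before an annotated start were read from RefSeq on GRCm38.p6 for 7 of the 9 members, Hspb6 with 2 starts. Cryab and Hspb2 are named only. The windows of Hspa1a (chr17:34972157-34972406, minus strand) and Hspa1b (chr17:34959239-34959488, minus strand) were identical at 247 of 250 bases (98.8%). Counted from 1 at the 5′ end, with the base of Hspa1a first, they differed by C44T, T47C and T249G. They are printed 5′ to 3′ with the 2-unit heat shock element GAANNTTC in capitals, here GAAGATTC at positions -104 to -97 from the start in both.
Hspa1a: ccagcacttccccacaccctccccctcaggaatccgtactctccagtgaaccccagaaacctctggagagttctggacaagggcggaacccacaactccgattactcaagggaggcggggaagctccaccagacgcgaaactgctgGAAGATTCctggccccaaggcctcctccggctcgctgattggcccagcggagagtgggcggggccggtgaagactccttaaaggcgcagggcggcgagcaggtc
Hspa1b: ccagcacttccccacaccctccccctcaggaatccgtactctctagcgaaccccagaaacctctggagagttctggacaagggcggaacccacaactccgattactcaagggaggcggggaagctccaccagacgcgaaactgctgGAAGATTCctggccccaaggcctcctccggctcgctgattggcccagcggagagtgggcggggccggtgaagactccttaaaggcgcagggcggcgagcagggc

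Hspb1 (chr5:135887669-135887918, plus strand) was shown because it held 2 matches to the same letters, GAAGTTTC at -117 to -110 and GAACCTTC at -97 to -90. The second start of Hspb6 (chr7:30553051-30553300, plus strand) held GAAGTTTC at -120 to -113, and Hspb7 (chr4:141420529-141420778, plus strand) held none. Matches are in capitals.
Hspb1: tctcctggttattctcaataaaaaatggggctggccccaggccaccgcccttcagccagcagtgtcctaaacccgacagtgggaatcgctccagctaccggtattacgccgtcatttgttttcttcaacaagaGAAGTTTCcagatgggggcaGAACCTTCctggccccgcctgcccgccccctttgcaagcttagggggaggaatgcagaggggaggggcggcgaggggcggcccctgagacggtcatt
Hspb6 second start: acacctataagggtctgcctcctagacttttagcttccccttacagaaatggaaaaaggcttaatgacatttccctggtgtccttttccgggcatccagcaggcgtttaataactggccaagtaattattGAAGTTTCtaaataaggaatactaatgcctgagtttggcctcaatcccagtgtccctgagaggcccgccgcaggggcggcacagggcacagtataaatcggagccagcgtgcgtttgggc
Hspb7: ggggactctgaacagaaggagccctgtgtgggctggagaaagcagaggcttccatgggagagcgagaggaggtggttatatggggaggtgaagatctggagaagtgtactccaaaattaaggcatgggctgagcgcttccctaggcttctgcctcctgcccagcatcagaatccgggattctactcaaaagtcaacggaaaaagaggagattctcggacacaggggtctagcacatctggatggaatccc

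In all, 5 of the 8 windows held GAANNTTC, those named and that of Hspb3, where the match was GAATTTTC. Over all 32851 windows of this length, 6.69% held it on either strand, the letters being their own reverse complement. TTCNNGAA, the other phase, was in none of the 8 and in 7.17% of all windows. A 3-unit element, which contains both 2-unit forms, was in none of the 8 and in 0.466% of all. A MEF2 box was found in Hspb3 alone, as CTATAAATAG at -12 to -3 and overlapping a TATAAA, against 2.92% of all windows. These matches describe letters, and no binding was measured.

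The small heat shock genes were among the more abundant messenger RNAs of these cells. Cryab, encoding alpha-B-crystallin, reached 1623 CPM (limits 1612 to 1634) and stood at rank 60 of all genes. Its value per cell ran from 305 to 3739 CPM with a median of 1576, and every kept cell had counts of it. Hspb6, encoding Hsp20, followed at 932 CPM and rank 101, with cells from 76.2 to 3614 and a median of 863 CPM. Hspb1, encoding Hsp25, was at 885 CPM and rank 109, with cells from 34.7 to 2136 and a median of 791 CPM. The cell ranges of the 3 genes overlapped, but the quartiles of Cryab (1271 to 1886 CPM) lay above those of Hspb6 (633 to 1147) and Hspb1 (612 to 1061). The order of Hspb6 and Hspb1 was not steady, since fast 2X cells had 756 CPM of Hspb6 and 878 CPM of Hspb1.

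Hspb8, encoding the Hsp22 that forms the chaperone-assisted autophagy complex with Bag3, was at 560 CPM, with cells from 49.8 to 1392 and a median of 507 CPM. Hspb2, a partner of Hspb3 in muscle oligomers, was at 256 CPM, from 0 to 561 with a median of 250 CPM. Hspb7, the cardiovascular heat shock protein that binds filamin C, was at 210 CPM, from 0 to 967 with a median of 192 CPM. Hspb3 was the lowest at 42.6 CPM (limits 40.9 to 44.5) and rank 3101. Hspa1b at 186 CPM (limits 182 to 190) and Hspa1a at 180 CPM (limits 176 to 184) lay close together, and given their shared sequence no order was read between them. Their medians per cell were lower, at 111 and 110 CPM, and the highest cells had 1650 and 1422 CPM. On lanes 1 and 2 the level was 135 and 234 CPM for Hspa1b and 140 and 217 CPM for Hspa1a.

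Each molecule carries its identifier on the primer of reverse transcription and is counted once, so no value per length of gene is given here. All 9 genes together made up 4874 CPM, or 0.487% of counts, of which the 7 small heat shock genes gave 4508 and the inducible pair 366 CPM. Of the remaining small heat shock genes listed, Hspb11 had 7.20 CPM, Odf1 0.270 CPM and Hspb9 no count.

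All 9 members had a count in at least 95% of the kept cells. Hspb3 was seen in 164 of 171 (95.9%, limits 91.7 to 98.3) and Hspa1b in 168. With each cell thinned to 28827 counts, the depth of the shallowest, Hspb3 was seen in 66.1% and Hspa1b in 87.1%, and 6 members stayed at 95% or more. Hspb3 is thus limited by depth in single cells.

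**Figure D1:**
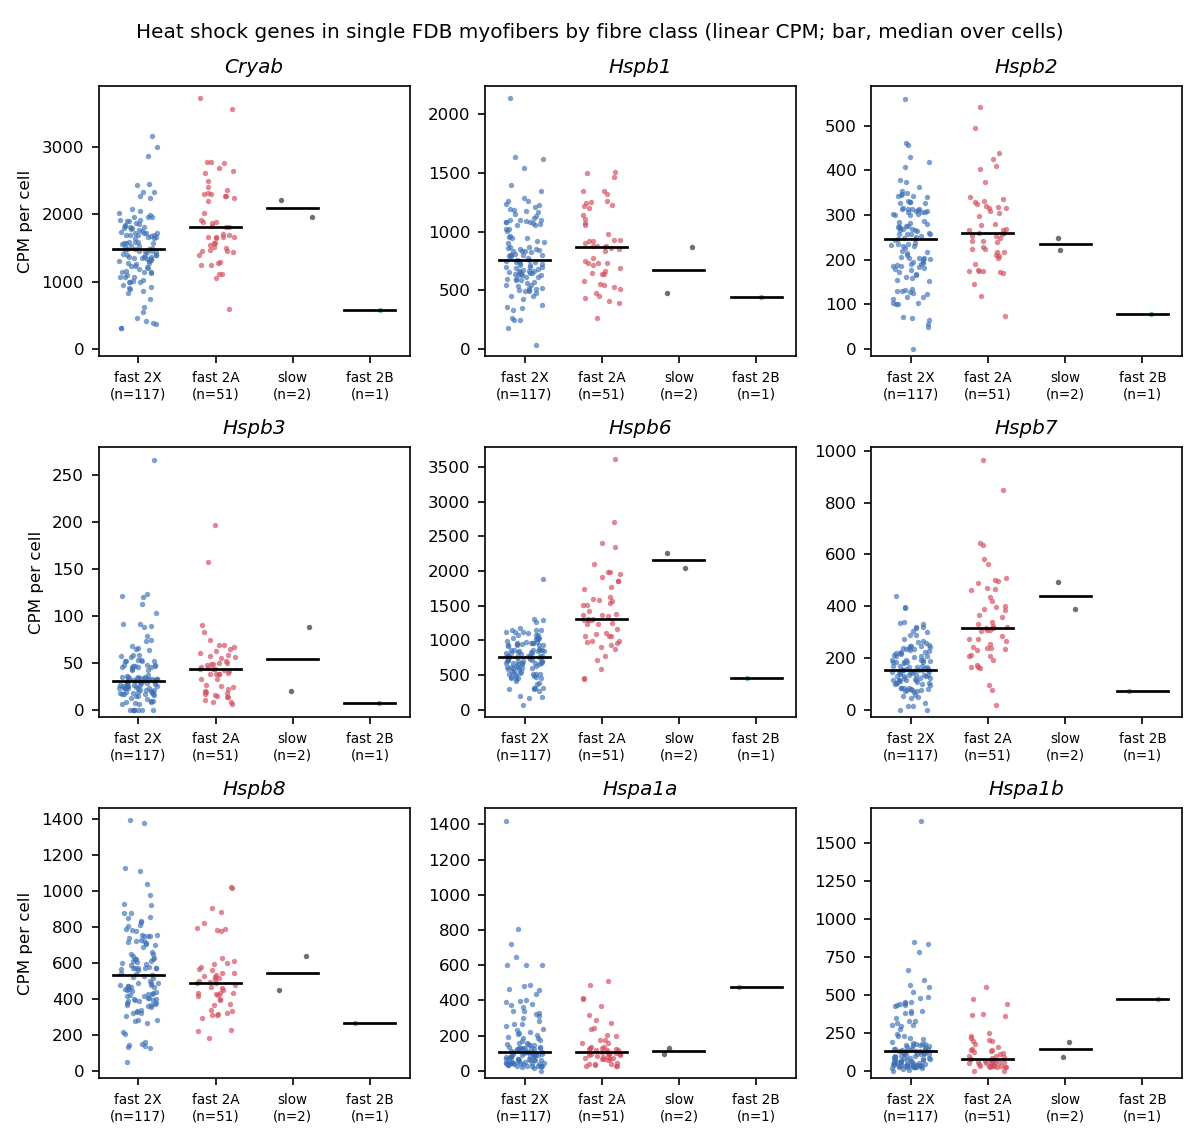
CPM per cell on linear axes for the 9 genes in each fibre class, 1 point per cell, with the median over cells as a bar. The fast 2A cells sit above the fast 2X cells for Hspb6 (medians 1316 and 756) and Hspb7 (317 and 155), while Hspa1a has long upper tails in both classes and medians of 109 and 110.

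Between the fibre classes, Hspb6 and Hspb7 stood out from the other members. Hspb6 was at 1457 CPM in fast 2A and 756 CPM in fast 2X cells, for which the ratio on the log2 scale was 0.95 (0.92 to 0.97). In fast 2A cells it ran from 443 to 3614 with a median of 1316 CPM, and in fast 2X cells from 76.2 to 1885 with a median of 756 CPM. The ranges overlapped, but 47 of 51 fast 2A cells lay above the fast 2X median and 1 of 117 fast 2X cells lay above the fast 2A median.

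Hspb7 was at 335 CPM in fast 2A and 168 CPM in fast 2X cells, for which that ratio was 1.00 (0.94 to 1.05). Its cells ran from 18.5 to 967 with a median of 317 CPM in fast 2A, and from 0 to 439 with a median of 155 CPM in fast 2X. Here 48 of 51 fast 2A cells were above the fast 2X median, and 8 of 117 fast 2X cells above the fast 2A median. These 2 members passed 1.5-fold upwards, where 2.57% of the 8649 genes with at least 500 counts did, and no member passed it downwards, where 7.31% did.

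Cryab was higher in fast 2A cells by less, at 1930 against 1528 CPM, a ratio of 0.34 (0.32 to 0.36) on the log2 scale. Its cells ran from 591 to 3739 with a median of 1809 CPM in fast 2A, and from 305 to 3170 with a median of 1485 CPM in fast 2X, and 38 of 51 fast 2A cells exceeded the fast 2X median. Hspb1 differed little, at 922 and 878 CPM. The limits of the log2 ratio spanned 0 for Hspb2 (0.03, from -0.03 to 0.09) and for Hspb3 (0.12, from -0.03 to 0.26). Hspb8 went the other way, at 501 CPM in fast 2A against 580 CPM, with a log2 ratio of -0.21 (limits -0.25 to -0.17). The median log2 ratio was 0.07 over the 9 members and -0.09 over all genes tested.

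Within plates some of these differences held and others did not. Both classes had 3 or more cells on 7 plates, and across them the log2 ratio of Hspb6 lay between 0.65 and 1.18, that of Hspb7 between 0.73 and 1.37, and that of Cryab between 0.12 and 0.58, above 0 on every plate. Hspb8 was below 0 on 6 of 7. Hspb2 and Hspb3 were above 0 on 4 and below on 3.

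Hspa1a and Hspa1b had no direction that held across plates. Over all cells Hspa1a was at 155 CPM in fast 2A and 187 CPM in fast 2X cells (log2 ratio -0.26), and Hspa1b at 143 and 198 CPM (log2 ratio -0.48). Within plates the ratios ran from -0.91 to 0.87 and from -1.43 to 0.89, with 4 plates above 0 and 3 below for each gene. Without plate 710, which held 15 fast 2X and 2 fast 2A cells, the log2 ratio was 0.03 for Hspa1a and -0.16 for Hspa1b.

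**Figure D2:**
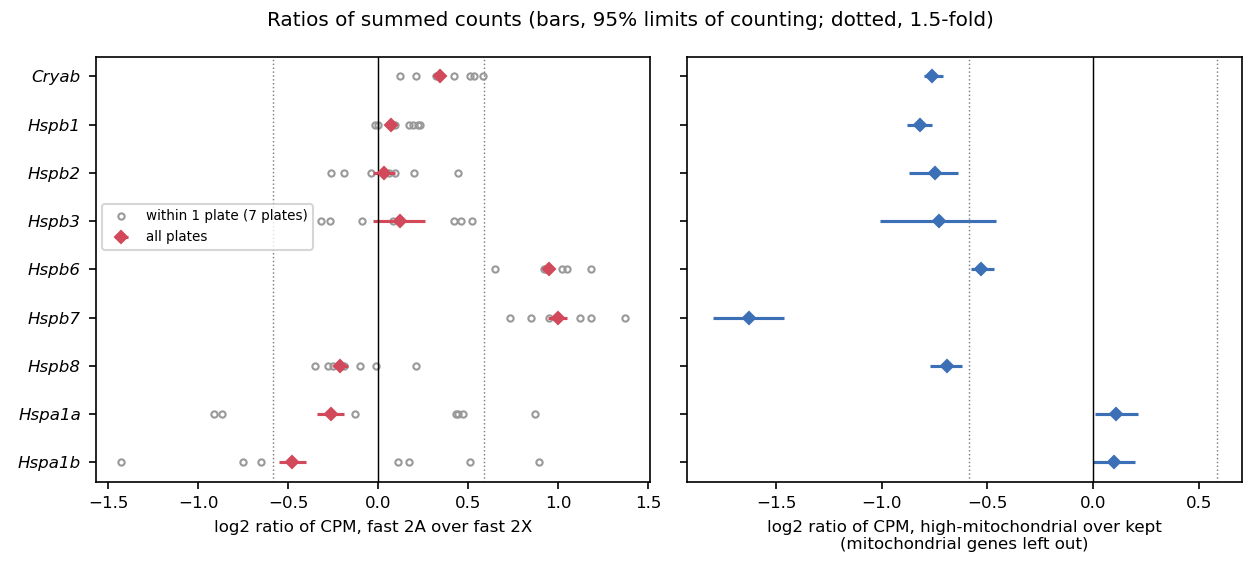
Log2 ratios of summed CPM for the 9 genes, fast 2A over fast 2X cells at left (diamonds, all plates, with 95% counting limits; open circles, each of 7 plates) and gene-rich high-mitochondrial over kept cells at right. Hspb6 and Hspb7 lie to the right of 0.58, the log2 of 1.5-fold, on every plate, whereas the circles of Hspa1a and Hspa1b spread over both sides of 0.

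The 2 slow cells continued the fast 2A side for the same genes. Hspb6 was 2260 and 2047 CPM in them, above all 117 fast 2X cells in both. Hspb7 was 495 and 388 CPM, above 117 and 114 of the 117 fast 2X cells. Cryab was 2214 and 1968 CPM. Hspb8, at 635 and 447 CPM, lay within both fast classes, above 80 and 43 of the 117 fast 2X and 42 and 20 of the 51 fast 2A cells.

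The single fast 2B cell had low values of all 7 small heat shock genes, with Cryab at 576 CPM and Hspb6 at 455 CPM, above 7 and 15 of the 117 fast 2X cells. Hspa1a and Hspa1b were both at 475 CPM there, above 108 and 106 of the fast 2X cells. This cell also had only 34923 CPM of myofiber markers, more than 6 of the fast 2X cells, and 2404 CPM of fibroblast and 864 CPM of Schwann cell markers, more than 116 of them in each case. The part of those markers in its values was not tested.

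Inside the classes, Hspb6 also followed the Myh2 share. Each fast cell was placed by the share of Myh2 in its summed Myh1 and Myh2 counts, and only 4 fast 2A and 3 fast 2X cells had a margin of under 10 percentage points between their leading myosins. Hspb6 was at 708 CPM in the 48 cells with a share under 20%, 818 CPM in the 69 cells from 20 to 50% and 1457 CPM in the 51 cells above 50%. Hspb7 followed at 153, 187 and 335 CPM. Hspb8 was at 649, 493 and 501 CPM, so its higher values belonged to the fast 2X cells with the least Myh2.

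Over the 168 fast cells, which share 1 mouse and 8 libraries, the Spearman correlation with the Myh2 share was 0.64 for Hspb6, 0.52 for Hspb7 and 0.34 for Cryab. It was -0.22 for Hspb8 and between -0.11 and 0.08 for the others. Among fast 2X cells alone the correlation was 0.33 for Hspb6 and -0.32 for Hspb8, and among fast 2A cells alone 0.39 and -0.04. Hspb7 had 0.14 and 0.32, and Cryab 0.18 and 0.12, within the same classes. For Hspb6 it was 0.63 on lane 1 and 0.62 on lane 2. The correlation with a cell's total counts was 0.04 for Hspb6, -0.02 for Hspb7 and 0.31 for Hspb1.

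**Figure D3:**
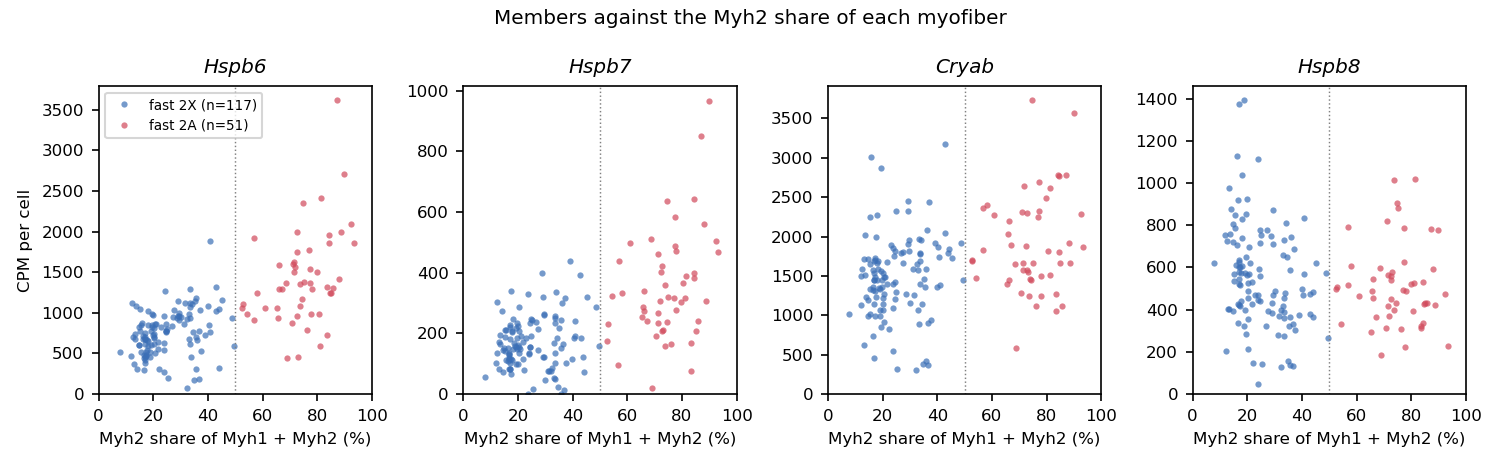
CPM per cell of Hspb6, Hspb7, Cryab and Hspb8 against the share of Myh2 in Myh1 plus Myh2 counts (percent), 1 point per fast cell (117 fast 2X, 51 fast 2A), with a dotted line at 50%. Hspb6 and Hspb7 climb from left to right (correlation 0.64 and 0.52) and Hspb8 is highest at the left (correlation -0.22).

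The share of mitochondrial counts moved with several members even among kept cells. The correlation with the mitochondrial percentage was -0.52 for Hspb1, -0.52 for Hspb8 and -0.41 for Hspb2 over the fast cells. For Hspb1 it was -0.54 within fast 2X and -0.52 within fast 2A cells. For Hspb6 it was -0.08 within fast 2X and -0.42 within fast 2A cells. Mitochondrial counts are part of each cell's total, and their part in these values was not tested.

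The members did not vary from cell to cell as a single block. Beyond counting error, the coefficient of variation across kept cells was 0.279 for Hspb2, 0.322 for Cryab, 0.335 for Hspb1 and 0.364 for Hspb8. It was 0.471 for Hspb6, 0.529 for Hspb3 and 0.580 for Hspb7. Hspa1a at 0.928 and Hspb7 stood at percentiles 98.5 and 92.3 among 650 and 534 genes of like level, and Hspa1b at 0.987 stood at percentile 99.0 among 614. The 18 cells highest in Hspa1a held 35.1% of its summed CPM, and for Hspa1b 36.7%, compared with 17.9% for Cryab. The 90th percentile cell had 10.6 times the Hspa1a of the 10th percentile cell, at 401 and 37.7 CPM, while for Cryab that ratio was 2.35.

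Hspb6 and Hspb7 had a correlation of 0.69 over the 168 fast cells, 0.51 within fast 2X and 0.59 within fast 2A cells. On the 8 plates it ran from 0.55 to 0.86. Cryab had a correlation of 0.59 with each of Hspb1, Hspb6 and Hspb7, which kept to between 0.50 and 0.69 within either class. Cryab and its head-to-head neighbour Hspb2 were less alike, at 0.44, and from 0.06 to 0.69 on single plates. Hspb8 had its highest value among members with Hspb1, at 0.45. Hspb3 reached at most 0.34, with Cryab, at counts where most cells hold few molecules.

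Among 1360 genes with at least 5000 counts, those most like Hspb6 were Actn2 (correlation 0.74), Myoz2 (0.73) and Ldhb (0.71). Those most like Hspb7 were Myoz2 (0.72), Actn2 (0.72) and Fhl1 (0.70). Actn2 encodes the alpha-actinin of the Z-disc and Myoz2 a calsarcin that binds it. All 4 genes were themselves higher in fast 2A cells, with log2 ratios of 0.74 for Actn2, 1.51 for Myoz2, 1.78 for Ldhb and 0.61 for Fhl1. Within fast 2X cells alone, the correlation was 0.56 between Hspb6 and Actn2 and 0.55 between Hspb7 and Myoz2.

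For Hspb8 the leading genes were Rbm24, a splicing factor of striated muscle (0.59), Pdlim3 (0.58) and the immediate early gene Nr4a1 (0.58). For Hspb1 they were Cryab (0.59), filamin C gene Flnc (0.55) and Egr1 (0.53). For Cryab all 3 were members. Hspb2 was most like the pseudogene row Gpx4-ps2 (0.61), Eif1 (0.59) and Ndufb1-ps (0.54), and Hspb3 most like Ccdc124 (0.35), Klhl40 (0.35) and Cryab (0.34). The median correlation over the 1360 genes lay between 0.03 and 0.17 for the 9 members.

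Hspa1a and Hspa1b formed a group apart from the small heat shock genes. Their correlation with each other was 0.81, and from 0.66 to 0.92 on the 8 plates, with the shared sequence named above. With Dnajb1, the J-domain partner of inducible Hsp70, the correlation was 0.70 for Hspa1a and 0.67 for Hspa1b. The pair with Dnajb1 held on each of 8 plates, from 0.51 to 0.77 for Hspa1a and from 0.34 to 0.82 for Hspa1b. Dnajb1 had 4378 counts and so lay outside the 1360 genes ranked, among which the next were the deubiquitinase gene Otud1 (0.45 and 0.41) and Unc45b, a myosin chaperone (0.43 and 0.41).

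Other classical heat shock targets followed less closely. Hsp90aa1 had a correlation of 0.37 and 0.30 with Hspa1a and Hspa1b, Hsph1 0.31 and 0.30, and Bag3 0.32 and 0.30. Constitutive Hspa8 was at 0.05 and -0.03. Over the 19 other listed targets the median correlation was 0.21 for Hspa1a and 0.17 for Hspa1b, beside 0.06 over all tested genes for each. Jun, an immediate early gene, was at 0.41 and 0.34, but the median over 17 immediate early genes was 0.12 and 0.10.

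Among the small heat shock genes, Cryab had a correlation of 0.26 with Hspa1a and Hspb1 had 0.35, whereas Hspb6 had 0.15 and Hspb7 0.10. Hspb1 and Hspb8 were nearer to the immediate early genes, with medians of 0.31 each over the 17 genes. Their highest were Egr1 for Hspb1 (0.53) and Nr4a1 for Hspb8 (0.58). For filament and chaperone-assisted autophagy genes, Hspb7 had 0.61 with Synpo2 and 0.60 with Flnc, and Hspb6 had 0.57 with Synpo2. Synpo2 and Flnc belong to the Z-disc machinery in which Bag3 and Hspb8 clear damaged filamin.

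**Figure D4:**
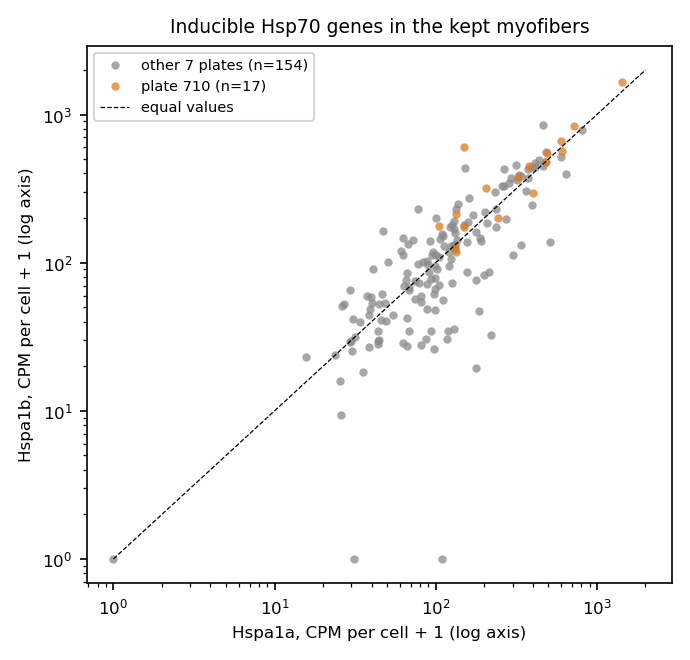
Hspa1b against Hspa1a in each of the 171 kept cells, as CPM plus 1 on log axes, with a dashed line of equal values. The 17 cells of plate 710 (orange) lie in the upper part of the cloud, and the pair runs along the line (correlation 0.81 over the 168 fast cells).

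Plate 710 stood apart for the inducible pair. With mitochondrial genes left out of the total, Hspa1a had a median of 341 CPM over its 17 kept cells, and medians from 81.5 to 146 CPM on the other 7 plates. Hspa1b had a median of 401 CPM there and from 41.3 to 163 CPM elsewhere. Dnajb1 had 168 CPM there and from 36.4 to 63.0 CPM elsewhere, and Hsph1 130 CPM there and from 49.0 to 73.7 CPM elsewhere. The cells of plate 710 ran from 121 to 1479 CPM for Hspa1a and overlapped those of every other plate. The highest cell for both genes was the one that stood apart in smooth muscle and fibroblast markers. Without it the medians on plate 710 were 303 CPM for Hspa1a and 379 CPM for Hspa1b over 16 cells.

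The difference was as large within a single fibre class. Among fast 2X cells alone, Hspa1a was at 429 CPM in the 15 cells of plate 710 and 148 CPM in the other 102, and all 15 lay above the median of the others, 98.9 CPM. Hspa1b was at 458 and 157 CPM in those cells. In the high-mitochondrial cells that had been left out, Hspa1b was again highest on plate 710, with a median of 367 CPM, followed by 293 on plate 712. Hspa1a was second there at 213 CPM, after 234 on plate 712, and Dnajb1 was highest at 122 CPM, followed by 63.1 on plate 709.

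The small heat shock genes varied less between plates. Between plates their medians differed at most by 1.89 times, for Hspb7, and Cryab by 1.27 times, compared with 4.18 times for Hspa1a and 9.71 times for Hspa1b. By cell medians plate 710 was neither highest nor lowest for any of the 7, while by summed counts it was highest for Hspb1 (1026 CPM) and lowest for Hspb6 (811 CPM) and Hspb7 (190 CPM). Of the immediate early genes, Fos had a median of 445 CPM on plate 710, inside its range of 320 to 556 CPM over plates, and Egr1 was also inside its range, at 454 CPM. Atf3 had its lowest median there, at 175 CPM, with up to 346 CPM elsewhere. Kept cells of plate 710 had a median of 283432 counts, second to plate 708, and the highest median of 14170 genes, and the part of depth was not tested. Without that plate, the 15 cells highest in Hspa1a still held 31.4% of its summed CPM, and the correlation with Dnajb1 was 0.65.

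**Figure D5:**
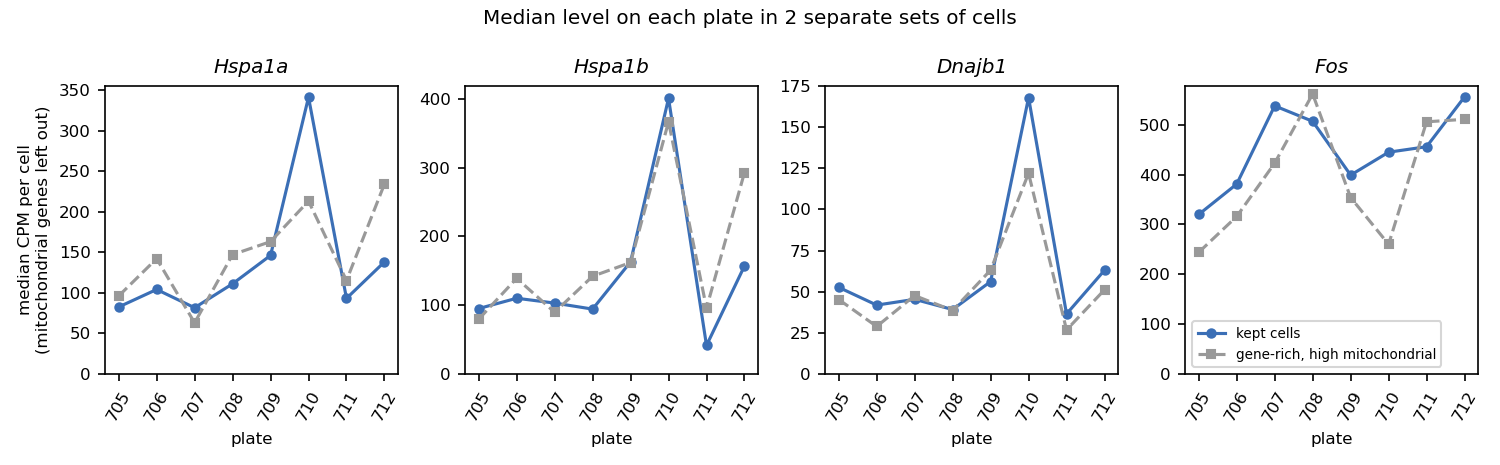
Median CPM per cell, with mitochondrial genes left out of the total, on each of 8 plates for Hspa1a, Hspa1b, Dnajb1 and Fos. Circles are kept cells and squares are the 111 gene-rich cells with at least 20% mitochondrial counts. Plate 710 is highest in kept cells for the first 3 genes, and Fos stays between 320 and 556 in them.

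Of the other chaperone genes listed, few passed 1.5-fold between fast 2A and fast 2X cells, where 2.57% of all tested genes did upwards and 7.31% downwards. Among genes with enough counts none of 9 Hsp70 family genes (the inducible pair not counted), 4 Hsp90 family genes or 10 chaperonins did. The same held for 16 co-chaperones, 2 heat shock factors and 16 heat shock targets that are not members. Lists of this size would hold few such genes at the shares over all genes. Of 18 J-domain genes 2 did, both upwards. They were Dnaja4, at 92.0 against 51.4 CPM, and Dnajb4, at 57.3 against 31.9 CPM, each with a log2 ratio of 0.84. Among 10 filament and autophagy genes only the intermediate filament gene Vim passed, downwards at 14.0 against 32.0 CPM. Vim is also expressed by fibroblasts and endothelial cells, and their part in this value was not tested.

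Bag3, the partner of Hspb8, was at 275 CPM in fast 2A and 226 CPM in fast 2X cells (log2 ratio 0.29). Flnc was at 1810 and 1454 CPM and Synpo2 at 541 and 388 CPM, log2 ratios of 0.32 and 0.48. Of these 3 genes and Hspb8, only Hspb8 was lower in fast 2A cells. Of 17 immediate early genes, Fosb passed downwards (27.4 against 54.8 CPM), and of 10 endoplasmic reticulum stress genes, Ddit3 passed upwards (164 against 106 CPM). Unc45b was below the fold, at a log2 ratio of -0.35.

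In the 111 cells with more than 5000 genes but at least 20% mitochondrial counts, most small heat shock genes were lower than in kept cells. Of these 111 cells, 30 were fragments and 81 whole myofibers, against 3 and 168 of the kept cells. The part of this difference in the values was not tested. Mitochondrial genes were left out of the totals here, since they define the groups. Hspb7 was at 72.0 CPM in these cells and 223 CPM in the kept cells, a log2 ratio of -1.63 (limits -1.80 to -1.46). Its cells ran from 0 to 246 with a median of 61.1 CPM, against 0 to 1001 with a median of 207 CPM in kept cells. The groups overlapped, with the upper part of the kept cells beyond any high-mitochondrial cell.

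The log2 ratio was -0.82 for Hspb1, -0.76 for Cryab, -0.75 for Hspb2, -0.73 for Hspb3, -0.69 for Hspb8 and -0.53 for Hspb6. Hspa1a was at 207 against 191 CPM and Hspa1b at 213 against 198 CPM, log2 ratios of 0.11 and 0.10. In all, 6 of the 9 members were at least 1.5-fold lower, where 16.9% of 9431 genes were, and none was higher, where 30.8% were. With mitochondrial genes in the total or with TMM factors all 9 were lower, where 58.1% and 57.0% of genes were. The 7 small heat shock genes lay below 0 under each of the 7 alternatives tried, but Hspa1a and Hspa1b were at -0.74 each with mitochondrial genes in the total, so for them no direction was read.

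Markers of other cells moved with this comparison. Endothelial markers were at 1056 CPM in the high-mitochondrial and 172 CPM in the kept cells, smooth muscle and pericyte markers at 580 and 92.6 CPM, fibroblast markers at 344 and 72.9 CPM, and red blood cell markers at 371 and 19.1 CPM. Myofiber markers were at 83139 and 124100 CPM. When the high-mitochondrial and the kept cells highest in such markers were left out, 56 of 111 and 153 of 171 cells remained. Myofiber markers were then at 106561 and 126223 CPM, and endothelial markers still differed, at 466 and 145 CPM, as did smooth muscle markers at 166 and 69.8 CPM and fibroblast markers at 99.6 and 38.2 CPM. There 2 of 9 members passed the fold, where 14.7% of all genes did downwards. They were Hspb7 at -1.32 and Hspb1 at -0.62. Hspb2 was at -0.48, Hspa1a at -0.39, Hspb3 and Hspb8 at -0.37, Cryab at -0.34, Hspb6 at -0.16 and Hspa1b at 0.00. The small heat shock genes other than Hspb7 and Hspb1 thus no longer lay apart from Hspa1a, but all still lay below Hspa1b.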

How the data were processed

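The authors sorted myofibers into plates, made mcSCRB-seq libraries with a cell barcode of 6 bases and a unique molecular identifier of 10 bases, and mapped reads to GRCm38 (mm10). The submitters' processing notes name STAR 2.5.4b, featureCounts and Cell Ranger 3.1.0 without their roles. The paper states that zUMIs was used, with STAR for mapping and featureCounts for counting, and it does not mention Cell Ranger. The deposited table holds raw, unnormalised molecule counts per gene (declared as estimated counts, since rows describing the cells share its columns). All gene values were whole. No column of per-sample values was left unused (0). Fibre class was set by the leading gene among 5 myosins. Counts were summed over cells and scaled to CPM. Limits were exact Poisson for levels, conditional binomial for ratios and Clopper-Pearson for shares. Ratios used genes with at least 500 summed counts, without the 5 myosins that set the classes, and a fold of 1.5. Genes named as alike were the 3 with the highest Spearman correlation among genes with at least 5000 counts. Lanes 1 and 2 served as replicates 1 and 2 where a lane was left out, and both hold cells of 1 mouse. The calculations were tested on simulated data and run with Python 3.11.15, pandas 2.3.3 and scipy 1.17.1, with edgeR 4.0.16 for TMM factors only. The members and lists were chosen with earlier results of these data known.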

Additional observations from a re-analysis of the deposited data

Results flagged for a closer look

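The 481 cells with at most 5000 genes entered no comparison above, yet all 9 genes were measured in them above the limit that a count of 0 allows, 0.915 CPM (3 counts of 3278580, mitochondrial genes left out). Cryab was at 1297 CPM there and 1726 CPM in the kept cells on the same scale. Hspb6 was at 900 CPM and 991 CPM, Hspb1 at 668 CPM and 941 CPM, and Hspb8 at 448 CPM and 596 CPM. Hspb2 was at 207 CPM and 272 CPM, and Hspb3 at 36.6 CPM and 45.4 CPM. Hspb7 was at 86.9 CPM and 223 CPM, the largest ratio of the 9. Hspa1a was at 174 CPM and 191 CPM, and Hspa1b at 201 CPM and 198 CPM. Cryab had a count in 437 of these cells and Hspb7 in 186. Fragments made up 60 of the 481 cells and whole myofibers 421. No cause was tested.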

How the results depend on the processing

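No paired analysis was possible because the samples form 1 group, 2 lanes of 1 mouse. Hspb6 and Hspb7 stayed past 1.5-fold in fast 2A cells in all 16 alternatives, with log2 ratios from 0.80 to 1.06 and from 0.95 to 1.11. With a fold of 2, 0 members were higher, and 67 genes of all tested were higher and 150 lower. Members lower numbered 0, and 1 (Hspa1b) with the mean over cells, the median over cells or thinned cells. TMM factors moved every log2 ratio by 0.11, which turned 222 higher and 632 lower genes into 379 and 389, a change from 26.0% to 49.3% higher. The median over cells gave 1087 lower, thinned cells 455 higher and 1126 lower, and no filter on low counts 4034 and 6397. Leaving out a lane gave 0 to 1 members lower and 325 to 665 genes lower. Within single plates, where fewer genes and cells were tested, members lower numbered 2 on plates 705 and 711 and 1 on plate 708, and members higher 4 on plate 706 (Hspb6, Hspb7, Hspa1a and Hspa1b). Genes higher numbered 119, 81, 97 and 111 on plates 705, 706, 707 and 711. Genes lower numbered 142, 109, 121, 203, 154, 233 and 268 on plates 705, 706, 707, 708, 709, 711 and 712. The number of genes tested on each plate is not given. The member counts on single plates thus have no share over all genes beside them, and nothing is read from them. Hspa1a was at 0.08 without lane 2 and -0.40 without lane 1. Hspa1b was below 0 in all 16 alternatives, from -0.75 to -0.11, though not on every single plate. In the high-mitochondrial cells, TMM factors moved log2 ratios by -0.82, and members lower went from 6 to 2 without the cells highest in other markers. That choice was made after seeing the data, as were leaving out plate 710 and leaving out lanes there. Leaving out the cells highest in other markers from the fibre classes was likewise chosen after seeing the data. No ratio past the fold over all plates changed sign, but Hspa1a and Hspa1b passed it upwards on plate 706 and downwards on plates 705 and 711.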
